A study of Mus musculus with 32 samples.

Results

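The Cyp3a cytochromes of mouse liver were followed together with PXR, the nuclear receptor that turns them on, and with P450 oxidoreductase, the enzyme that feeds them electrons. The 9 genes, of 55487 in the deposited table, were chosen by symbol: Cyp3a11, Cyp3a13, Cyp3a16, Cyp3a25, Cyp3a41a, Cyp3a44, Cyp3a59, Nr1i2 and Por. They were chosen in part because Cyp3a11 moved opposite to other hepatocyte genes in these same libraries, so the values that showed this are given below as a description, with no p-value, and support nothing. All 9 passed the filter on low counts and were among the 14903 genes tested.

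RNA of whole liver was measured by polyA sequencing in 32 libraries, 8 in each of 4 groups. The groups were mice with the FAAH S268D substitution on the NASH-AA diet, FAAH S268D mice on the NASH diet, WT mice on NASH-AA and WT mice on NASH. FAAH, fatty acid amide hydrolase, is the enzyme that cleaves N-acyl taurines and other fatty acid amides. All mice had been on an HFFC diet for 28 weeks, with or without ARA, per the series text, and the sample labels name the diets NASH and NASH-AA. No group on an ordinary diet was analysed here, so each value below compares mice that all received HFFC. The labels give neither age nor sex nor whether replicates were separate animals, so the p-values rest on the variation among the samples alone, and that variation could be technical.

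CYP3A enzymes are membrane-bound monooxygenases of the hepatocyte endoplasmic reticulum that oxidise drugs, steroids and bile acids. PXR, encoded by Nr1i2, binds such compounds, pairs with RXR and acts on response elements built from pairs of short hexamers upstream of Cyp3a genes. Every microsomal P450, the CYP3A enzymes included, takes its electrons from NADPH through POR. In mouse liver Cyp3a11 is the main adult form, Cyp3a16 is known mainly from fetal and young liver, and Cyp3a41a and Cyp3a44 are known mainly from female liver.

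On GRCm38, the Cyp3a genes other than Cyp3a13 lie side by side within 768 kb of chromosome 5 (145345279 to 146113287, counting Cyp3a41b and Cyp3a57, which are no members). Cyp3a11 spans 145854426 to 145879964 on the minus strand. Cyp3a13 stands apart on the same chromosome (137892932 to 137921619), Por lies at 135670033 to 135735326, and Nr1i2 lies on chromosome 16 (38248323 to 38294824). Por overlaps 2 predicted genes on the opposite strand, and without a stated strand setting in the counting their reads cannot be told apart. Cyp3a13 overlaps 1 on its own strand, where no strand setting would separate the reads.

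The members were all found in the table of promoters, 9 of 9. The 200 bases before each start (RefSeq, GRCm38.p6) are given for the 6 Cyp3a genes that fell into the most similar groups, to show how alike they are in sequence. For Cyp3a11 the RefSeq start lies inside the gene span given above, which ends at 145879964. Part of its stretch therefore falls within that span, and its positions below are counted from the RefSeq start. Capitals mark the hexamers AGGTCA and AGTTCA and, where they lie on the other strand, their reverse complements TGACCT and TGAACT.
Cyp3a11, chr5:145879855-145880054, minus strand: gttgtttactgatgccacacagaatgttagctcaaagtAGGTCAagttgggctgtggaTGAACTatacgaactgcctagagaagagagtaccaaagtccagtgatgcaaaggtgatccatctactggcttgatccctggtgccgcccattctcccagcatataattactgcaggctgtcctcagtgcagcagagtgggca
Cyp3a41a, chr5:145720137-145720336, minus strand: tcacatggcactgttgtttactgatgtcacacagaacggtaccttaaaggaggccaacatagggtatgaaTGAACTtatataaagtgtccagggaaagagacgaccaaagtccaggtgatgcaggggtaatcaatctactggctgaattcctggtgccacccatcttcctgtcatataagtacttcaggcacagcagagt
Cyp3a44, chr5:145805875-145806074, minus strand: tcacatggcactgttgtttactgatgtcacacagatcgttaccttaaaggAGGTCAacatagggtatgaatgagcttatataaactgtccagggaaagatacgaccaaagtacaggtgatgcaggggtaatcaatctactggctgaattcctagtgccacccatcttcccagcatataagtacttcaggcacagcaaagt
Cyp3a16, chr5:145469724-145469923, minus strand: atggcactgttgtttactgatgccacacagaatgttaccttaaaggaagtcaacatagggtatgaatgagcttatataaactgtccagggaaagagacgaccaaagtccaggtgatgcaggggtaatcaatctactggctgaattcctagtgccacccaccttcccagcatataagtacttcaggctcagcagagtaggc
Cyp3a25, chr5:146009619-146009818, minus strand: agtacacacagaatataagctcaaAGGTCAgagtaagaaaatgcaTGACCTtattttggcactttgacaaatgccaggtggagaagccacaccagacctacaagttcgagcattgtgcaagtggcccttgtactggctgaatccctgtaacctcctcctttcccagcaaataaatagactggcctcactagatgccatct
Cyp3a59, chr5:146079058-146079257, plus strand: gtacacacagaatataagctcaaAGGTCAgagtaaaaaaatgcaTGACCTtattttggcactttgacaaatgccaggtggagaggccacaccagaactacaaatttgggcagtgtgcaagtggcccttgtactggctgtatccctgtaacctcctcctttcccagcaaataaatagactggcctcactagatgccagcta

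Over 300 bases (250 before the start and 50 from it on), Cyp3a16 and Cyp3a44 were identical at 93.4% of aligned positions, Cyp3a41a and Cyp3a44 at 93.0%, and Cyp3a25 and Cyp3a59 at 95.7%. Cyp3a11 was identical to Cyp3a16 at 74.8% and to Cyp3a25 at 52.9%. AGGTCA on either strand was found in 4 of the 9 members' windows (Cyp3a11, Cyp3a25, Cyp3a44 and Cyp3a59), against 16.3% of 32851 promoters of the same length, and AGTTCA in 2 of 9 (Cyp3a11 and Cyp3a41a), against 13.99%. Only Cyp3a11 of the 9 held both, AGGTCA from position -162 and the reverse complement of AGTTCA from position -142, counted from the start. In Cyp3a25 the pair AGGTCA and TGACCT began at -176 and -155, and in Cyp3a59 at -177 and -156. TATAA on either strand was present in 7 of 9 windows, against 24.9% of all promoters. Direct repeats of AGGTCA or of AGTTCA 3 or 4 bases apart and everted repeats of AGGTCA 6 or 8 bases apart were found in 0 of 9 windows, against at most 0.015% of all promoters for any of them, so their absence here sets these genes apart from no others. A match is a match of letters, not a bound site.

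The transcripts are also alike, which bears on how far single Cyp3a counts can be trusted. Of the 31-base words of Cyp3a41a transcripts, 96.1% also occur in Cyp3a41b and 99.9% in at least 1 other Cyp3a gene. Of Cyp3a59 words 43.5% occur in Cyp3a25, and of Cyp3a25 words 41.2% occur in Cyp3a59. Cyp3a16 shares 16.1% of its words with Cyp3a11, and Cyp3a44 shares 20.4%. Cyp3a13 shares 0.1% with any other. How the counting divided reads among such copies is not given in the sources used here, so the levels of Cyp3a41a, Cyp3a44, Cyp3a16, Cyp3a25 and Cyp3a59 are uncertain to that extent.

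Libraries held a median of 22896702 counts. The shallowest, FAAH S268D NASH replicate 1, held 3851626, the next 14743252 and the deepest 34370179. Levels are CPM, counts scaled to the depth of each library with TMM factors, and levels of different genes are compared per kilobase of the longest coding transcript. Albumin ran from 31370 to 67310 CPM over the 32 libraries, and 10 of 12 markers of intestine and pancreas were below the filter. Faah itself had medians of 178 CPM in FAAH S268D NASH-AA, 185 CPM in FAAH S268D NASH, 157 CPM in WT NASH-AA and 151 CPM in WT NASH. It was called higher in FAAH S268D on NASH (0.27 ± 0.06 on the log2 scale, limma-voom adjusted p = 0.00678). On NASH-AA it gave 0.21 ± 0.06 and did not pass (limma-voom adjusted p = 0.104), with 7 of 8 FAAH S268D libraries above every WT library. A substitution need not change the amount of transcript, so Faah levels do not check the labels.

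Cyp3a11 was the most abundant member by far. Per kilobase its median over 32 libraries was 951 CPM, ahead of Por at 193, Cyp3a25 at 163, Cyp3a13 at 38.5, Nr1i2 at 24.4 and Cyp3a59 at 12.1. Cyp3a16 at 0.50, Cyp3a44 at 0.43 and Cyp3a41a at 0.36 CPM per kilobase were barely present. Cyp3a11 was above Por in 32 of 32 libraries with no overlap of their ranges, whereas Por and Cyp3a25 overlapped and Por was the higher in 25 of 32. The 3 lowest genes could not be put in order, since Cyp3a16 was above Cyp3a44 in 15 of 32 libraries and Cyp3a44 above Cyp3a41a in 21 of 32. Of the summed per-kilobase level of 9 Cyp3a genes (the 7 members, Cyp3a41b and Cyp3a57), Cyp3a11 made up a median of 78.9% in FAAH S268D NASH-AA, 81.2% in FAAH S268D NASH, 79.1% in WT NASH-AA and 85.8% in WT NASH. Cyp3a25 made up a median of 15.8% in FAAH S268D NASH-AA, 14.5% in FAAH S268D NASH, 15.8% in WT NASH-AA and 10.7% in WT NASH.

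**Figure D1:**
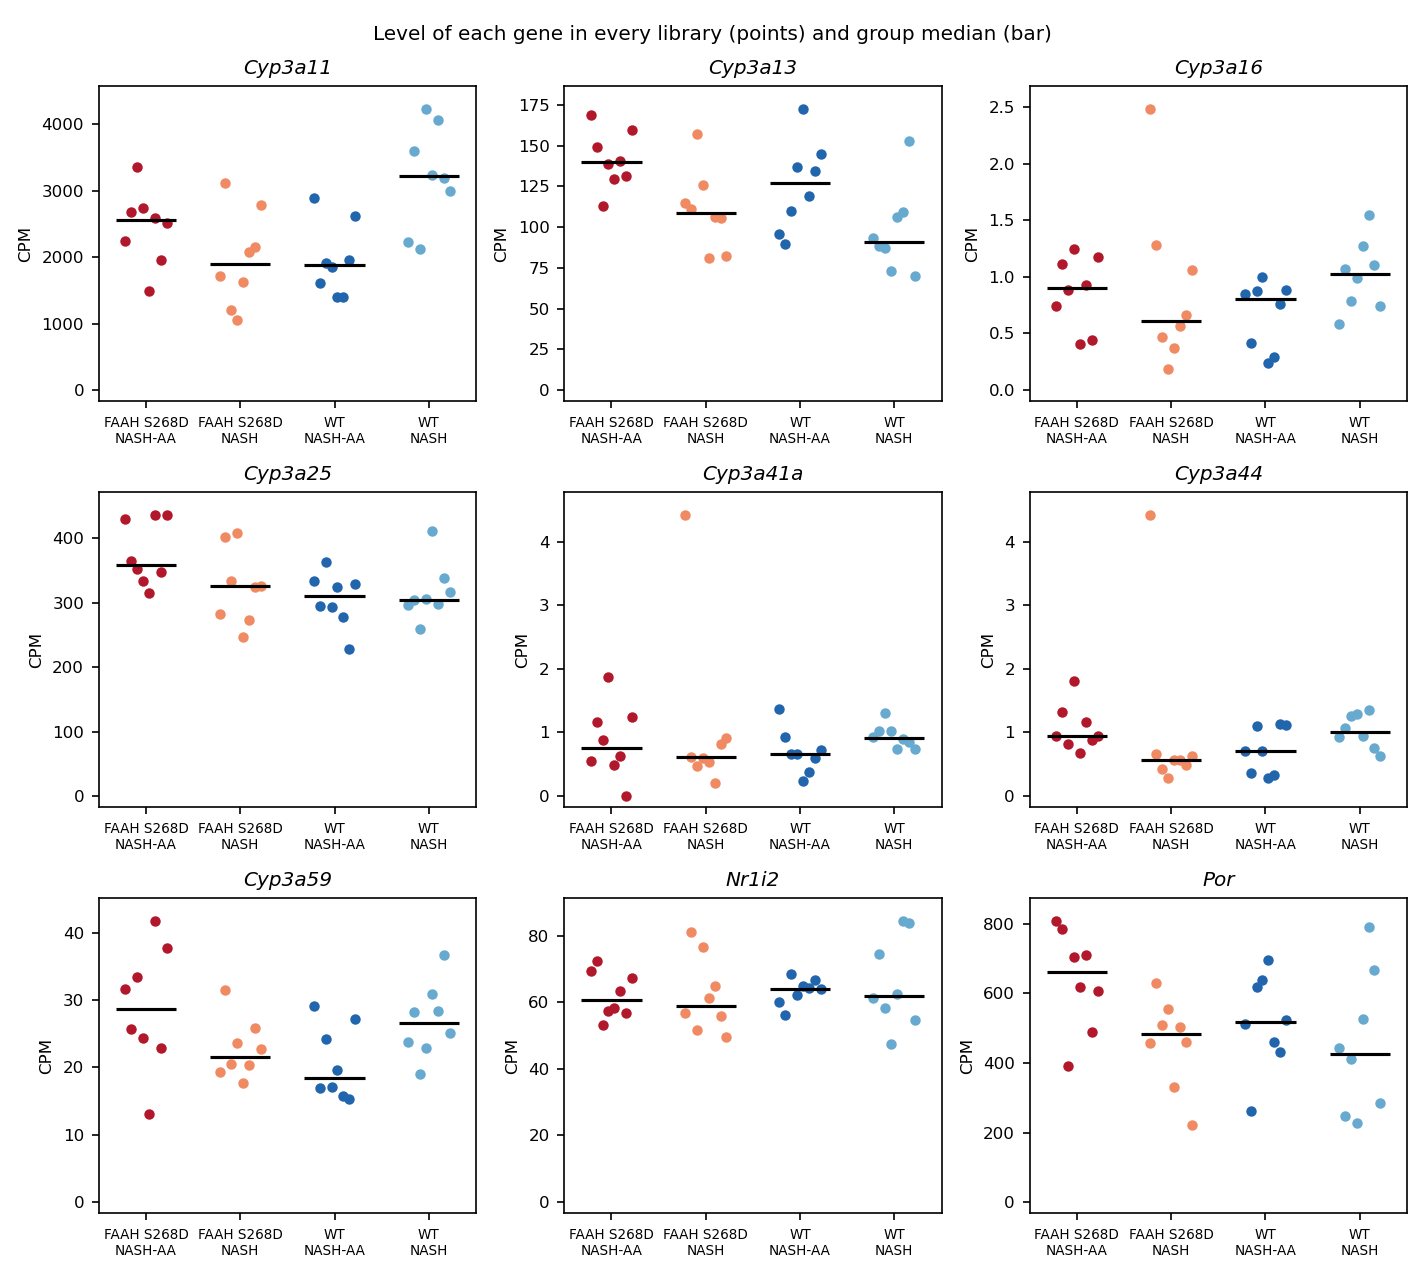
Level of each of the 9 genes (CPM, linear axes from just under 0) in every library, by group, with the group median as a bar (8 libraries a group). For Cyp3a11 the WT NASH libraries run from 2115 to 4234 CPM, with the highest single value and the highest median, and overlap the other groups. For Cyp3a41a and Cyp3a44, 1 FAAH S268D NASH library stands far above the rest at 4.42 CPM each.

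Cyp3a11, the main CYP3A enzyme of adult mouse liver, was highest in WT livers on NASH and lower in the other 3 groups. It had a lowest, median and highest value of 1487, 2555 and 3357 CPM in FAAH S268D NASH-AA. In FAAH S268D NASH the 3 values were 1048, 1897 and 3115 CPM. In WT NASH-AA they were 1396, 1886 and 2893 CPM, and in WT NASH 2115, 3212 and 4234 CPM. All 8 WT NASH libraries lay above the medians of WT NASH-AA and of FAAH S268D NASH, though the ranges overlapped, with 6 of 8 WT NASH-AA libraries and 5 of 8 FAAH S268D NASH libraries below every WT NASH library. By median the order ran from WT NASH through FAAH S268D NASH-AA and FAAH S268D NASH to WT NASH-AA, and each neighbour in that order overlapped the next.

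The fitted log2 fold change of Cyp3a11 was -0.72 ± 0.20 (SE) for WT NASH-AA over WT NASH, which is 0.61-fold, and -0.76 ± 0.20 for FAAH S268D NASH over WT NASH. These 2 comparisons share the 8 WT NASH libraries and are the ones in which Cyp3a11 goes against other hepatocyte genes, so both are descriptions. For FAAH S268D NASH-AA over FAAH S268D NASH it was 0.37 ± 0.20, with 7 of 8 FAAH S268D NASH-AA libraries above the FAAH S268D NASH median (limma-voom adjusted p = 0.454). For FAAH S268D NASH-AA over WT NASH-AA it was 0.33 ± 0.20 (limma-voom adjusted p = 0.442). Neither difference passed. The difference between the diet effects, FAAH S268D minus WT, was 1.09 ± 0.28 on the log2 scale and is a description too, since it contains the WT comparison.

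The libraries carry numbers from 1 to 32 in the labels, with no word on what a number marks. Cyp3a11 was lower in WT NASH-AA than in WT NASH within both ranges of numbers, with medians of 1917 CPM (n = 3) and 2907 CPM (n = 4) among numbers 1 to 16. Among numbers 17 to 32 the medians were 1855 CPM (n = 5) in WT NASH-AA and 3212 CPM (n = 4) in WT NASH. For the diet in FAAH S268D the difference was small in the second range. Cyp3a11 had a median of 2704 CPM in FAAH S268D NASH-AA (n = 4) and 1618 CPM in FAAH S268D NASH (n = 5) among numbers 1 to 16. Among numbers 17 to 32 it had 2241 CPM (n = 4) and 2150 CPM (n = 3), and the fitted log2 fold change there was -0.158 ± 0.224, within 1 SE of 0 and of the other sign.

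Cyp3a25 and Cyp3a59 lie next to each other at one end of the cluster, on opposite strands. Cyp3a25 ran at 314, 358 and 437 CPM (lowest, median, highest) in FAAH S268D NASH-AA and at 247, 325 and 408 CPM in FAAH S268D NASH. In WT NASH-AA it ran at 228, 310 and 363 CPM, and in WT NASH at 258, 305 and 411 CPM. The groups overlapped widely, and Cyp3a25 varied less than any other Cyp3a member, with a coefficient of variation of 16.3% over 32 libraries against 33.8% for Cyp3a11. Its log2 fold change was 0.30 ± 0.10 for FAAH S268D NASH-AA over WT NASH-AA, with 8 of 8 libraries of the first above the median of the second. That was the smallest adjusted p of any member in the comparison and did not pass (limma-voom adjusted p = 0.177).

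Cyp3a59 had 13.1, 28.7 and 41.8 CPM in FAAH S268D NASH-AA and 17.6, 21.6 and 31.5 CPM in FAAH S268D NASH. It had 15.4, 18.4 and 29.2 CPM in WT NASH-AA and 19.1, 26.6 and 36.7 CPM in WT NASH. The low value of 13.1 CPM belonged to FAAH S268D NASH-AA replicate 5, which was also the lowest of its group for Cyp3a11. Cyp3a59 gave 0.46 ± 0.18 for FAAH S268D NASH-AA over WT NASH-AA (limma-voom adjusted p = 0.224) and -0.40 ± 0.18, untested, for WT NASH-AA over WT NASH.

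Cyp3a13, the Cyp3a gene outside the cluster, had higher medians on NASH-AA in both genotypes. It had 113, 140 and 169 CPM in FAAH S268D NASH-AA, against 81.1, 109 and 157 CPM in FAAH S268D NASH. In WT NASH-AA it had 89.6, 127 and 173 CPM, against 69.7, 90.9 and 153 CPM in WT NASH. The groups overlapped, but 8 of 8 FAAH S268D NASH-AA libraries lay above the FAAH S268D NASH median and 7 of 8 WT NASH-AA libraries above the WT NASH median. The log2 fold changes were 0.37 ± 0.14 in FAAH S268D (limma-voom adjusted p = 0.28) and 0.37 ± 0.14 in WT, where no test was made, and their difference was 0.00 ± 0.20.

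Cyp3a16, Cyp3a41a and Cyp3a44 were near the lower limit of what these libraries can show, with medians of 18.5, 19 and 18.5 counts a library. Cyp3a16 ran between 0.40 and 1.25 CPM in FAAH S268D NASH-AA, 0.18 and 2.49 CPM in FAAH S268D NASH, 0.24 and 1.0 CPM in WT NASH-AA, and 0.58 and 1.55 CPM in WT NASH. Cyp3a41a had no count in FAAH S268D NASH-AA replicate 7, which leaves its fitted values dependent on that library. Its near-identical copy Cyp3a41b held 10 counts there. In replicate 5 of that group Cyp3a41a held 11 counts and Cyp3a41b 0. How reads were divided between these copies was not tested. FAAH S268D NASH replicate 1, the shallowest library, held 16 counts of Cyp3a41a and 16 of Cyp3a44, or 4.42 CPM each, against at most 0.92 and 0.66 CPM in the other 7 libraries of its group. It also held the highest Cyp3a16 value, 2.49 CPM from 9 counts. Cyp3a11 in the same library was at 1711 CPM, inside the range of its group.

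Of the 3 low genes, Cyp3a44 had the largest fitted change. It had 0.67, 0.94 and 1.80 CPM in FAAH S268D NASH-AA, against 0.28, 0.57 and 4.42 CPM in FAAH S268D NASH. Its log2 fold change between these was 0.82 ± 0.30 and did not pass (limma-voom adjusted p = 0.261). Without FAAH S268D NASH replicate 1 it was 0.96 ± 0.28 (limma-voom adjusted p = 0.198). In WT, untested, Cyp3a44 gave -0.58 ± 0.29 and Cyp3a16 -0.67 ± 0.33 for NASH-AA over NASH. Cyp3a41a gave -0.08 ± 0.53 for the diet in FAAH S268D, and 0.54 ± 0.34 without FAAH S268D NASH-AA replicate 7. All 32 libraries had Ddx3y, a Y-linked gene, at 14.9 to 49.4 CPM and Xist, the RNA that coats the inactive X, at 0 to 0.14 CPM.

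Nr1i2, the gene of PXR, was the steadiest member. It had 53.3, 60.7 and 72.4 CPM in FAAH S268D NASH-AA and 49.7, 59.0 and 81.2 CPM in FAAH S268D NASH. It had 56.3, 64.2 and 68.6 CPM in WT NASH-AA and 47.5, 61.9 and 84.6 CPM in WT NASH. The 4 groups lay over each other, with a coefficient of variation of 14.8% over all libraries. Its fitted log2 fold changes were 0.01 ± 0.11 for the diet in FAAH S268D (limma-voom adjusted p = 0.982) and -0.03 ± 0.10 for genotype on NASH-AA (limma-voom adjusted p = 0.925). The untested ones were -0.03 ± 0.10 for the diet in WT and -0.07 ± 0.11 for genotype on NASH.

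Por, the electron donor of all microsomal P450 enzymes, was highest in FAAH S268D NASH-AA by median. It had 391, 662 and 810 CPM there, against 221, 482 and 630 CPM in FAAH S268D NASH. In WT NASH-AA it had 263, 517 and 695 CPM, against 228, 427 and 791 CPM in WT NASH. In FAAH S268D 4 of 8 NASH-AA libraries lay above every NASH library, and 0 of 8 NASH libraries lay above the NASH-AA median. The log2 fold change of 0.51 ± 0.24 did not pass (limma-voom adjusted p = 0.374), and WT gave 0.28 ± 0.24, untested.

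Counted over the 9 genes, 0 passed for the diet in FAAH S268D by limma-voom, in a comparison that called 0.0939% of the 14903 genes, 0.0268% higher and 0.0671% lower. With unadjusted p under 0.05 there were 4 members, Cyp3a13, Cyp3a25, Cyp3a44 and Por, all higher on NASH-AA, against 1843 of the 14903 genes (12.4%) at that threshold, and limma-trend also called 0 members. The members' median log2 fold change was 0.37, with 8 of 9 positive, beside 0.005 over all genes tested. For genotype on NASH-AA 0 of 9 passed, against 0.658% of all genes (0.349% higher, 0.309% lower), and 0 by limma-trend. At an unadjusted p under 0.05 there were 2, Cyp3a25 and Cyp3a59, against 2317 of the 14903 genes (15.5%). The median there was 0.33 with 7 of 9 positive, beside 0.002 over all genes. These 2 comparisons share the FAAH S268D NASH-AA libraries, and for Cyp3a11 the choice favours positive values in both.

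For genotype on NASH 1 of 9 was called, Cyp3a11, lower in FAAH S268D, in a comparison that called 9.18% of all genes, 2.89% higher and 6.29% lower. That comparison helped to choose the gene, so the count is printed beside its background as a description and nothing is read from it or from its changes. Without FAAH S268D NASH replicate 4, the lowest Cyp3a11 library of its group, the count was 0 and Cyp3a11 gave -0.64 ± 0.20. Without FAAH S268D NASH replicate 1 it was 2, with Cyp3a44 added at -0.95 ± 0.28. With no test, the diet in WT gave a median of -0.40 over the members with 7 of 9 negative.

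**Figure D2:**
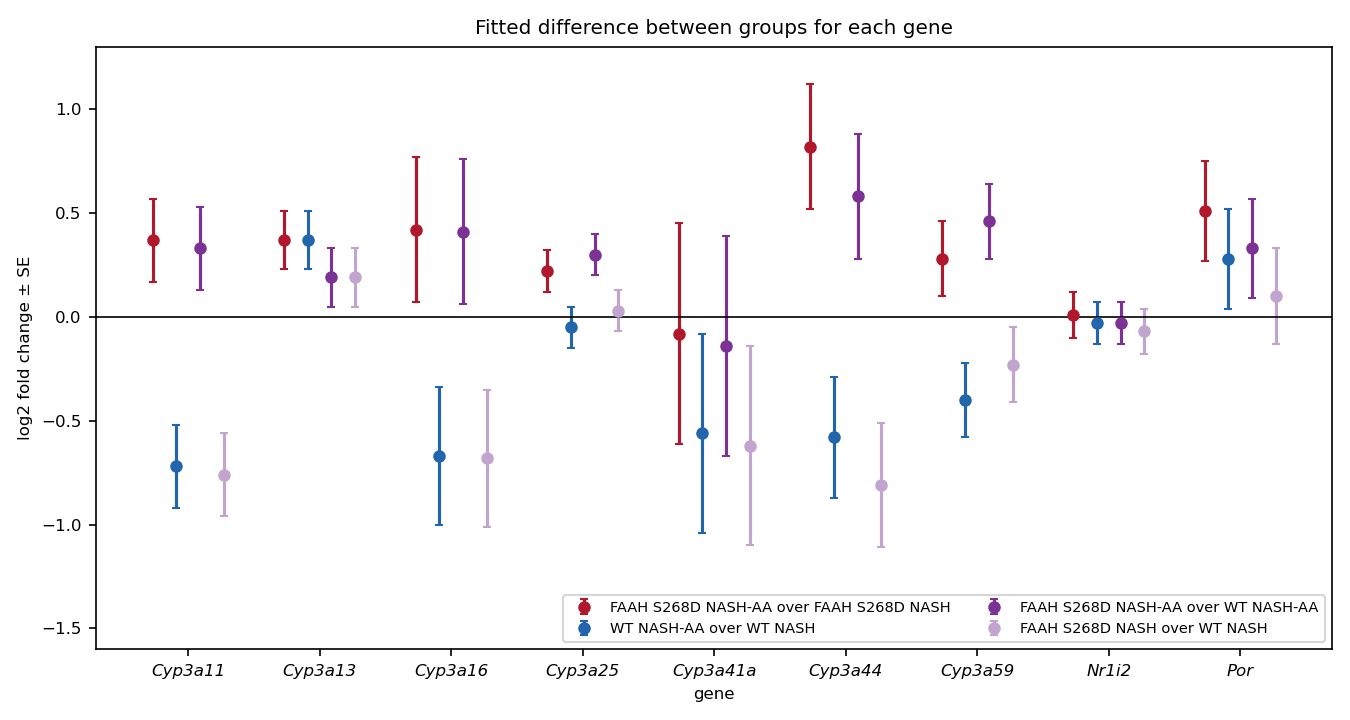
Fitted log2 fold change of each gene (points) with its standard error (bars) in the 4 comparisons between groups of 8 libraries, each given as first group over second. For Cyp3a11 the comparisons over WT NASH sit at -0.72 and -0.76 while those of FAAH S268D NASH-AA sit at 0.37 and 0.33, and Nr1i2 sits near 0 in all 4.

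Within groups, Cyp3a11 varied together with 2 other genes of its cluster, Cyp3a16 and Cyp3a59, and not detectably with Nr1i2 RNA. The protein and the activity of PXR were not measured. After each group's mean was taken away, 8 relations were tested over 32 libraries with a two-sided permutation test within groups (100000 permutations, p-values adjusted over the 8). Cyp3a11 and Cyp3a16 had r = 0.70 (adjusted permutation p = 0.00104) and Spearman's rho = 0.69 (adjusted permutation p = 0.0012), and r was 0.60 without the 2 libraries farthest from the Cyp3a11 median. It was 0.63 among library numbers 1 to 16 and 0.82 among 17 to 32. Cyp3a11 and Cyp3a59 had r = 0.58 (adjusted permutation p = 0.00144) and rho = 0.57 (adjusted permutation p = 0.00332), with 0.58 without the 2 farthest, and 0.59 and 0.64 in the 2 ranges of numbers. Cyp3a59 shares 0.0% of its words with Cyp3a11. Cyp3a16 shares 16.1% with a gene whose median count was 55290 against its own 18.5, and the part of shared reads in their correlation was not tested.

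The other 6 coefficients were lower. Nr1i2 gave r = 0.05 (adjusted permutation p = 0.793) and rho = 0.09 (adjusted permutation p = 0.733), Por r = -0.12 (adjusted permutation p = 0.621) and rho = -0.06 (adjusted permutation p = 0.775). Cyp3a25 gave r = 0.18 and rho = 0.23, and Cyp3a13 r = -0.25 and rho = -0.13 (adjusted permutation p of 0.318 or more for each). Cyp3a41a and Cyp3a44 passed by rank, with rho = 0.42 (adjusted permutation p = 0.0401) and rho = 0.46 (adjusted permutation p = 0.029). By Pearson's r they did not, at 0.27 (adjusted permutation p = 0.318) and 0.36 (adjusted permutation p = 0.253). The counts of Cyp3a41a and Cyp3a44 are few and no more is read from them. Those of Cyp3a16 are as few, which limits its coefficients too.

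**Figure D3:**
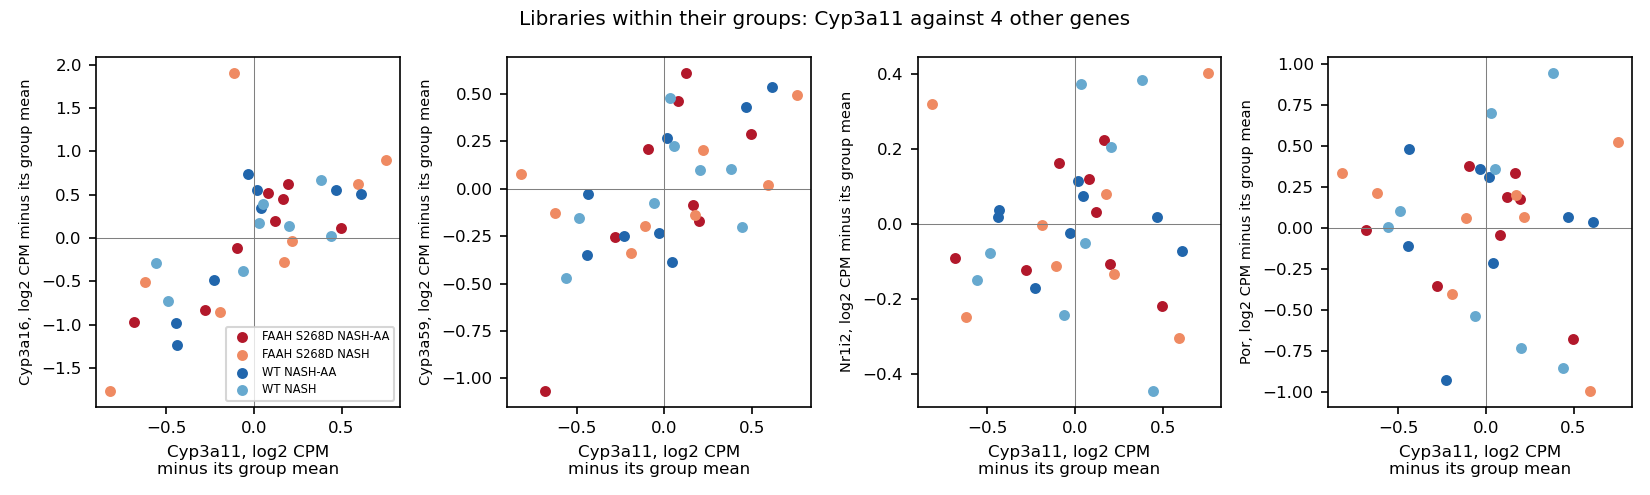
Each point is 1 of 32 libraries, plotted by its log2 CPM minus its group mean for Cyp3a11 (horizontal) and for Cyp3a16, Cyp3a59, Nr1i2 or Por (vertical), coloured by group. Cyp3a16 (r = 0.70) and Cyp3a59 (r = 0.58) climb with Cyp3a11, and Nr1i2 (r = 0.05) and Por (r = -0.12) do not.

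Outside the members, the genes most like Cyp3a11 over the 32 libraries, among 11937 named genes with a mean of at least 1 CPM, were Cyp2c55 (r = 0.64), Pck2 (r = 0.64), Ints6l (r = 0.63), Gpr137b-ps (r = 0.60) and Lrch4 (r = 0.59). Their Spearman's rho ran from 0.475 to 0.67 and the r of deviations from group means from 0.475 to 0.685. Cyp2c55, another P450 gene, had medians of 6.26 CPM in FAAH S268D NASH-AA, 5.05 CPM in FAAH S268D NASH, 3.21 CPM in WT NASH-AA and 5.67 CPM in WT NASH. Nr1i2 was most like Pck1 (r = 0.64), Rhobtb1 (r = 0.62) and Tox (r = 0.61). Por had closer company, in Nmrk1 (r = 0.91, rho = 0.88), Upp2 (r = 0.88, rho = 0.85) and Usp2 (r = 0.88, rho = 0.81), with 0.892, 0.902 and 0.863 for the deviations from group means. These coefficients were the highest of a search and share libraries and depth, so they are descriptions.

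Other P450 genes of xenobiotic and steroid metabolism were called higher, never lower, in the comparisons over WT NASH, in which Cyp3a11 was lower. Both comparisons helped to choose Cyp3a11, so the contrast with it is a description. Of 44 tested, 10 were called higher and 0 lower for the diet in WT, where 4.41% of all genes were called, 1.44% higher and 2.97% lower. The 10 were Cyp2d40, Cyp2b9, Cyp1a2, Cyp2a5, Cyp2c29, Cyp2c50, Cyp2j5, Cyp2c37, Cyp2d22 and Cyp2b13. Cyp1a2, the enzyme that clears caffeine, had 256, 404 and 574 CPM in WT NASH-AA, against 139, 207 and 299 CPM in WT NASH, and a log2 fold change of 0.93 ± 0.22 (limma-voom adjusted p = 0.021). Cyp2c29 gave 1.16 ± 0.28 (limma-voom adjusted p = 0.0267). The list's median was 0.35 with 36 of 44 positive, and the most negative was Cyp2c55 at -0.63 ± 0.25, just above Cyp3a11 at -0.72.

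For genotype on NASH 8 of the 44 were called higher and 0 lower: Cyp2f2, Cyp2j5, Cyp2d40, Cyp2d10, Cyp2d22, Cyp2a12, Cyp2c29 and Cyp2d26. Of all genes, 2.89% were called higher there and 6.29% lower. Cyp2f2, which turns over naphthalene, had 1027, 1304 and 1717 CPM in FAAH S268D NASH, against 424, 794 and 1184 CPM in WT NASH (0.73 ± 0.16, limma-voom adjusted p = 0.00564). The list's median was 0.35 with 37 of 44 positive. In the comparisons that do not use WT NASH the list and Cyp3a11 were positive alike, though the choice of Cyp3a11 favours its sign there too. The diet in FAAH S268D gave a median of 0.28 with 34 of 44 positive, and genotype on NASH-AA 0.23 with 35 of 44 positive, with 0 called in either by limma-voom. The smallest adjusted p among them was 0.0841 for Cyp2a5 in the diet comparison (0.87 ± 0.21) and 0.145 for Cyp2a12 on NASH-AA (0.32 ± 0.10).

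Among PXR target genes outside Cyp3a, between 0 and 2 of 27 were called in each comparison, all higher. Of all genes, 1.44% were called higher for the diet in WT and 2.89% for genotype on NASH. The share was 0.0268% for the diet in FAAH S268D and 0.349% for genotype on NASH-AA. Of 27 tested, 2 were called higher and 0 lower for the diet in WT, Cyp2a5 (0.88 ± 0.21, limma-voom adjusted p = 0.0253) and Aldh1a1, a retinal dehydrogenase (0.53 ± 0.14, limma-voom adjusted p = 0.0345), with a median of 0.13. Cyp2a5 is in the P450 list too. For genotype on NASH 2 were higher and 0 lower, Gstt1, a glutathione transferase (0.40 ± 0.11, limma-voom adjusted p = 0.0174), and Sult5a1, a sulfotransferase (1.38 ± 0.38, limma-voom adjusted p = 0.0218), with a median of -0.02. For the diet in FAAH S268D 0 passed and the median was 0.05, with Fgf21, a liver hormone, at -1.82 ± 0.49 (limma-voom adjusted p = 0.118). Ugt1a1, which conjugates bilirubin, gave 0.38 ± 0.10 (limma-voom adjusted p = 0.118).

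On NASH-AA 1 of the 27 PXR targets was called for genotype. Slco1a4, a bile acid and drug uptake carrier, had 17.6, 45.2 and 64.2 CPM in FAAH S268D NASH-AA, against 8.53, 17.8 and 24.4 CPM in WT NASH-AA, and its log2 fold change was 1.29 ± 0.29 (limma-voom adjusted p = 0.0271). In FAAH S268D NASH it had 12.4, 27.1 and 40.3 CPM and in WT NASH 12.5, 24.9 and 46.4 CPM. The list's median for that comparison was 0.02 with 15 of 27 positive.

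**Figure D4:**
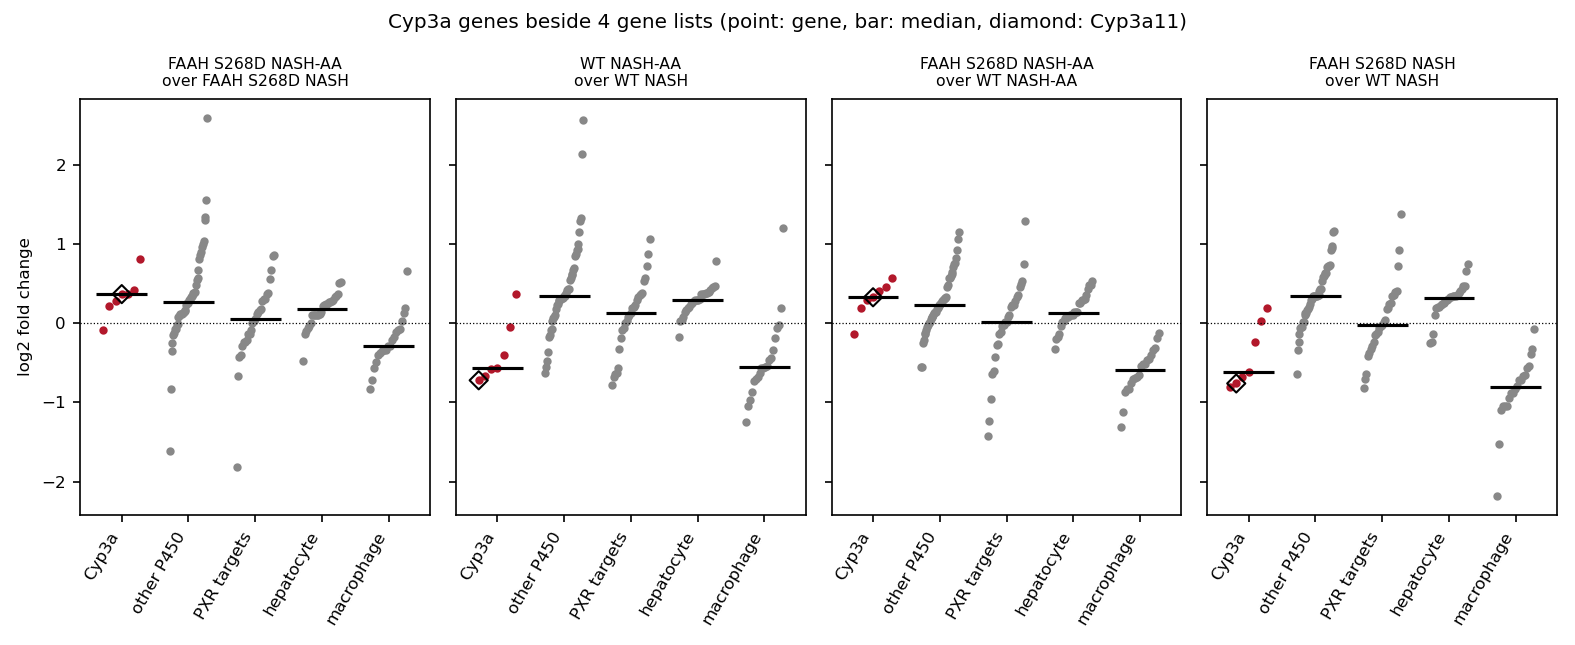
Log2 fold changes of the 7 Cyp3a members (red, Cyp3a11 as an open diamond) beside the genes of 4 lists (grey), 1 panel per comparison, each point a gene and each bar a list's median. In the 2 panels over WT NASH Cyp3a11 sits at -0.72 and -0.76 while the medians of the other P450 genes are 0.35 and 0.35 and those of hepatocyte markers 0.30 and 0.32.

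Of 23 nuclear receptors and liver factors tested, 0 were called by limma-voom for the diet in FAAH S268D, for genotype on NASH-AA or for genotype on NASH. Nr1i3, the gene of the sister receptor CAR, had 199, 402 and 560 CPM in FAAH S268D NASH-AA, against 121, 216 and 347 CPM in FAAH S268D NASH, and did not pass (0.86 ± 0.24, limma-voom adjusted p = 0.13). In WT it gave 0.62 ± 0.23 for the diet (limma-voom adjusted p = 0.101). The list's medians were 0.18 for the diet in FAAH S268D, 0.13 for the diet in WT, 0.08 for genotype on NASH-AA and 0.04 on NASH. Of 13 genes of electron supply, 2 were called for genotype on NASH, Fdxr, the mitochondrial ferredoxin reductase, higher (0.21 ± 0.07, limma-voom adjusted p = 0.0399) and G6pdx, which makes NADPH, lower (-0.58 ± 0.17, limma-voom adjusted p = 0.029). That comparison called 9.18% of all genes, 2.89% higher and 6.29% lower. In the other 3 comparisons 0 of the 13 were called. Its medians were -0.09 for the diet in FAAH S268D, 0.14 for the diet in WT, -0.08 for genotype on NASH-AA and 0.20 on NASH.

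Cell type markers moved along with these comparisons. In bulk RNA, fewer cells of a type and less RNA per cell cannot be told apart. The 26 hepatocyte markers outside Cyp3a summed to 127800 to 147000 CPM in FAAH S268D NASH-AA, 96090 to 156700 CPM in FAAH S268D NASH, 112600 to 131600 CPM in WT NASH-AA and 84740 to 121300 CPM in WT NASH, and none was at 0 in all libraries. Cyp3a11 was thus highest in the group with the lowest median hepatocyte sum, 99090 CPM. Of the 26, 25 were positive for the diet in WT with a median of 0.30, and 23 for genotype on NASH with a median of 0.32, as the choice of Cyp3a11 already used. For the diet in FAAH S268D 21 of 26 were positive with a median of 0.18, and for genotype on NASH-AA 21 of 26 with 0.13, the direction of Cyp3a11 there.

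The 20 macrophage and monocyte markers summed to a median of 845 CPM (549 to 974) in FAAH S268D NASH-AA and 940 CPM (571 to 1330) in FAAH S268D NASH. In WT NASH-AA they summed to 1090 CPM (935 to 1270) and in WT NASH to 1685 CPM (792 to 2273). For genotype on NASH 13 of 20 were called lower, Cd68 (-1.05 ± 0.21, limma-voom adjusted p = 0.0029) and Lyz2 (-1.04 ± 0.22, limma-voom adjusted p = 0.00463) among them, and 2 for the diet in WT, Itgam and Cd9. Of 22 genes of inflammatory cytokines, receptors and signals, 6 were called lower for genotype on NASH, Il1b (-1.27 ± 0.28, limma-voom adjusted p = 0.00678) and Il1rn (-1.22 ± 0.23, limma-voom adjusted p = 0.00181) among them. For the diet in WT 3 were lower, Il1a, Tgfb1 and Cd14, and 1 higher, Saa3. Cholangiocyte markers summed to medians of 75.7 CPM in FAAH S268D NASH-AA, 143 CPM in FAAH S268D NASH, 107 CPM in WT NASH-AA and 178 CPM in WT NASH. Most of that sum was Spp1, which is in the macrophage list too. Spp1 alone had medians of 41.3 CPM in FAAH S268D NASH-AA, 108 CPM in FAAH S268D NASH, 73.6 CPM in WT NASH-AA and 138 CPM in WT NASH. For the diet in WT 2 of 9 cholangiocyte markers were called lower, Tspan8 and Cldn4. Stellate cell and fibroblast markers summed to medians of 495 CPM in FAAH S268D NASH-AA, 596 CPM in FAAH S268D NASH, 566 CPM in WT NASH-AA and 816 CPM in WT NASH. Of these 12, Timp1 was called lower for genotype on NASH and Rgs5 for the diet in WT. Of 13 T, NK and B cell markers 4 were called lower for genotype on NASH, Cd8a, Trac, Cd3e and Cd3g, and of 10 sinusoidal endothelial markers 2 for the diet in WT, Flt4 and Stab1. Of all genes, 1.44% were called higher and 2.97% lower for the diet in WT. For genotype on NASH 6.29% were called lower. The part of these marker shifts in the values of Cyp3a11 was not tested. The 12 pericentral markers, which mark the zone where Cyp3a11 is known to be strongest, summed to medians of 14370 CPM in FAAH S268D NASH-AA and 11500 CPM in FAAH S268D NASH. In WT NASH-AA the median was 12560 CPM and in WT NASH 8802 CPM, the reverse of the Cyp3a11 order between the 2 WT groups. Such a contrast with hepatocyte genes helped to choose Cyp3a11, so it is a description.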

How the data were processed

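Gene values came as 1 table, which the authors deposited unscaled. They are estimated counts in form. The submitters' processing notes name STAR 2.7.10, UMI-tools 1.1.2, Trim Galore 0.6.7 and the GRCm38 build. How reads were counted, and with which strand setting, is not given in the sources used here. A spreadsheet had turned 0.464% of the 1775584 cells into clock times and 0.107% into fractions of a day, and 11.4% carried grouping marks. Only 52450 cells could not be read as a plain number, fewer than the 202488 with grouping marks, so some marked cells did read as plain numbers. Among the members, 6 had 31 or 32 of 32 cells not written as a whole number (Cyp3a11, Cyp3a16, Cyp3a25, Cyp3a41a, Cyp3a44 and Cyp3a59). Por had 17 such cells, and Cyp3a13 and Nr1i2 had 0. How many of these cells a spreadsheet had changed was not tested. Of the members 4 had 1 cell with 2 possible originals. Fixed rules turned altered cells back. For 0.208%, with 2 possible originals, the one nearer the gene's depth-scaled median was taken. Altered cells kept the table from being recorded as counts, so the unit of the deposited values was set as other and no count model was run. Values were rounded.

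Group means were fitted over 32 libraries with limma-voom (limma 3.58.1, R 4.3.3; prior count 0.5) and TMM factors by own code (30% and 5% trims). Genes needed the CPM of 10 counts in a median library in 8 libraries, and 15 counts in total, which left 14903. The threshold was a Benjamini-Hochberg adjusted p of 0.05. On simulated diet changes in FAAH S268D over 14774 genes, the fit recovered 60 of 100 genes at 2-fold and 98 of 100 at 4-fold, with 10 false among 168 calls. The simulation gave every gene the same spread setting, which real genes do not share, and changes below 2-fold were not simulated. Counting error is largest for genes of few counts. Members and gene lists were chosen with earlier results of these data known. Named from each list were up to 4 genes with the smallest unadjusted p per comparison and those that passed. Genes most like a member had the highest Pearson r of log2 CPM. The count of calls for the diet in WT among nuclear receptors and liver factors is not reported here.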

Additional observations from a re-analysis of the deposited data

Results flagged for a closer look

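The shallowest library, FAAH S268D NASH replicate 1, stood far from the other 7 libraries of its group for 2 members. Cyp3a41a was 4.42 CPM there, from 16 counts, against 0.21 to 0.92 CPM in the others, with a gap to the nearest of them of 0.833 of the group's range. Cyp3a44 was also 4.42 CPM, from 16 counts, against 0.28 to 0.66 CPM, with a gap of 0.906. Both gaps are past Dixon's critical value for 8 values. In all, 36 groups of 8 values were examined, and chance alone passes this limit in about 1 group of 20. The library's low depth moves with these values, and its part in them was not tested.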

How the results depend on the processing

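Over 45 results of single members and their alternatives, 1936 values were computed and 1887 were scored as unchanged. For 27 results, those of the diet in FAAH S268D and of genotype on either diet, that meant keeping direction and side of the threshold. For the other 18 it meant moving by less than the spread, whatever the sign. Nr1i2 for the diet in WT, at -0.032 in the main fit, reached 0.057. For the difference between diet effects Por, at 0.228, reached -0.041. Cyp3a11 stayed between -0.911 and -0.467 for the diet in WT and between 0.753 and 1.21 for the difference between diet effects. The count of members called for genotype on NASH was 0 in library numbers 1 to 16 alone, in 17 to 32 alone and with 2 groups fitted alone, where fewer libraries entered, and 2 with sample quality weights. Leaving out 1 library at a time gave 0 to 2. That comparison helped to choose Cyp3a11, so its counts are descriptions under every setting and nothing is read from them. With quality weights the count of members called was 2 for the diet in FAAH S268D (Cyp3a13, limma adjusted p = 0.0404, and Cyp3a44, limma adjusted p = 0.0489) and 2 for genotype on NASH-AA (Cyp3a25, limma adjusted p = 0.0313, and Cyp3a59, limma adjusted p = 0.0438). Those weights raised calls over the whole table too, to 1062 genes for the diet in FAAH S268D (14 without them), 756 for genotype on NASH-AA (98) and 1967 for genotype on NASH (1368). The cause was not tested.

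Signs turned mainly where the main value was near 0. For the diet in FAAH S268D, Cyp3a41a was 0.11 with a term for library numbers, 0.575 in numbers 1 to 16, 0.006 with quality weights and 0.354 summed with Cyp3a41b. Nr1i2 was -0.054 in numbers 1 to 16, and in numbers 17 to 32 Cyp3a11 was -0.158 and Cyp3a16 -0.055. Leaving out 1 library gave -0.336 to 0.543 for Cyp3a41a and -0.042 to 0.066 for Nr1i2. For genotype on NASH, Nr1i2 was 0.138 in numbers 1 to 16, and in numbers 17 to 32 Cyp3a13 was -0.117, Cyp3a25 -0.143 and Por -0.53. Leaving out 1 library gave -0.017 to 0.084 for Cyp3a25 and -0.023 to 0.237 for Por. For genotype on NASH-AA, Cyp3a41a was 0.051 and Nr1i2 0.027 in numbers 1 to 16, and Cyp3a13 was -0.008 in numbers 17 to 32. Cyp3a41a was 0.032 with quality weights, 0.044 with limma-trend, 0.228 summed with Cyp3a41b and -0.344 to 0.478 leaving out 1 library. The cause was not tested.

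Replicate numbers were not taken to pair libraries, since only 13 of 48 same-numbered pairs had correlated deviations over 0.1 (-0.383 to 0.332) although a library was closest to its own number in 12, where 6 would be so if numbers meant nothing, and replicate 1 correlated at 0.098 to 0.332 in its 6 pairs. The labels give no meaning to the numbers. With the replicate block the counts of members called stayed 0, 1 and 0, the 1 for genotype on NASH being a description. Cyp3a41a turned to 0.034 for the diet in FAAH S268D. Genes called over the table were 8 for the diet in FAAH S268D, 961 for genotype on NASH and 63 on NASH-AA. Without a low-count filter they were 6, 1132 and 81. Fewer counts limit Cyp3a16, Cyp3a41a and Cyp3a44 most.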

Other observations

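Heme, the cofactor of every P450, is made and broken down by 15 genes that were all tested. Blvrb, a biliverdin reductase, was called higher for the diet in WT (0.35 ± 0.10, limma-voom adjusted p = 0.0472). Of all genes, 1.44% were called higher there. Hmox1, which opens the heme ring, was called lower for genotype on NASH, with 25.4, 34.3 and 40.4 CPM (lowest, median, highest) in FAAH S268D NASH, against 29.2, 46.9 and 75.7 CPM in WT NASH (-0.59 ± 0.16, limma-voom adjusted p = 0.019). In that comparison 6.29% of all genes were called lower. On NASH-AA Hmox1 gave -0.62 ± 0.16 and did not pass (limma-voom adjusted p = 0.06). For the diet in FAAH S268D 0 of 15 passed, with a median of 0.08, and Alas1, the rate-limiting enzyme of heme synthesis, gave 0.67 ± 0.32 (limma-voom adjusted p = 0.388).

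Cyp2b9 and Cyp2b13, P450 genes known mainly from female liver, were the 2 of 15 female-biased genes outside Cyp3a called for the diet in WT, both higher. Of all genes, 1.44% were called higher there. The 15 were split, 9 positive and 6 negative, with a median of 0.30. Cyp2b9 had 71.4, 185 and 286 CPM in WT NASH-AA, against 7.76, 56.3 and 97.7 CPM in WT NASH (2.14 ± 0.46, limma-voom adjusted p = 0.0175). In FAAH S268D Cyp2b9 gave 1.56 ± 0.47 and did not pass (limma-voom adjusted p = 0.159). Cyp3a41a and Cyp3a44, also known mainly from female liver, gave -0.56 ± 0.48 and -0.58 ± 0.29 for the diet in WT, untested. Of 19 male-biased genes, 1 was called for the diet in WT, Susd4, higher (1.37 ± 0.31, limma-voom adjusted p = 0.021), and 1 for the diet in FAAH S268D, Mup20, a major urinary protein gene, lower (-0.98 ± 0.20, limma-voom adjusted p = 0.0341). For the diet in WT 16 of the 19 were positive, with a median of 0.61. Of all genes, 0.0671% were called lower for the diet in FAAH S268D. For genotype on NASH 3 of the male-biased genes were called higher, Susd4, Nudt7 and Mup3, against 2.89% of all genes. The list's median there was 0.60.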
